A study of Mus musculus with 2 samples.

Results

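Matriptase (St14) and prostasin (Prss8), a pair of serine proteases at the surface of epithelial cells, and the Kunitz-type inhibitors Spint1 and Spint2 were compared between 2 cultures of mouse mammary carcinoma cells. The 4T1-3R_L cells, the liver metastatic population of the study, were recovered from liver metastases formed in an in vivo experiment and then cultured. The 4T1 parental cells are the reference line, a mammary carcinoma line from a BALB/c mouse. Both were grown under 5% CO2 with no treatment named in the labels, and neither a clone nor the number of animals behind the 4T1-3R_L cells is given. Total RNA of each was hybridised to 1 Affymetrix expression array. The members were chosen by name, as every probe set annotated with exactly 1 of the 4 symbols, which gave 5 probe sets of the 45101 on each array and 4 genes of the 18193 with a probe set of their own.

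With 1 array in each group there was no replicate spread, so no difference below was tested, and each value describes these 2 arrays. The deposited values are MAS5 signals on a linear scale. They carry no detection calls, so a floor of 90.6, the median of all signals on both arrays, stood in for the background, and a gene counted as measured where it reached the floor on at least 1 array. Ratios have the 4T1-3R_L signal on top and the parental signal below, on the log2 scale. The signal depends on the probe as well as on the transcript, so a difference in signal between genes is not read as a difference in transcript level. Bulk RNA cannot tell fewer expressing cells from less RNA per cell.

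Matriptase is made as a membrane-spanning zymogen and, once active, cleaves other proteins at the cell surface. Prostasin is held by a lipid anchor, and the proteases can activate each other in epithelia. Spint1 encodes HAI-1 and Spint2 encodes HAI-2, membrane proteins whose Kunitz domains block both proteases. Known targets of matriptase include the precursor of hepatocyte growth factor, pro-urokinase, protease-activated receptor 2 and the adhesion molecule Epcam. In intestinal epithelium, loss of HAI-2 leads to cleavage of Epcam and loss of its partner claudin-7.

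St14 was the member that differed most. Its signal was 2507 in 4T1-3R_L cells and 4509.5 in parental cells, on its single probe set. That is 1.80-fold lower in 4T1-3R_L cells, a log2 ratio of -0.85. Both signals lay far over the floor, at 27.7 and 49.8 times its value. Of the 11135 measured genes, 6.9% had a log2 ratio as low or lower. As deposited, St14 therefore lay in the lower tail of the genes on these arrays but short of 2-fold.

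Prss8, the other protease, had a signal of 423 in 4T1-3R_L cells and 341 in parental cells, again on a single probe set. Its signal was 1.24-fold higher in 4T1-3R_L cells, a log2 ratio of 0.31 that turned to -0.28 with the arrays scaled to their hybridisation controls. As deposited, 28.2% of measured genes had a ratio as high or higher. Its signals were 4.7 times the floor in 4T1-3R_L cells and 3.8 times in parental cells. The log2 ratio of St14 was 1.16 below that of Prss8.

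Spint1 had nearly equal signals, 1953 in 4T1-3R_L cells and 1934 in parental cells. The log2 ratio was 0.01, and only 2.1% of measured genes had a ratio as close to zero or closer. Spint2 was measured on both of its probe sets. On the brighter of them, an _x_at set whose probes may also bind other transcripts, the signal was 7666.5 in 4T1-3R_L cells and 6217 in parental cells, a log2 ratio of 0.30. On the other, an _a_at set designed against several transcripts of the gene, it was 3585 in 4T1-3R_L cells and 3349 in parental cells, a log2 ratio of 0.10. As deposited, both Spint2 probe sets were thus slightly higher in 4T1-3R_L cells, by 1.23-fold and 1.07-fold, and the brighter was at -0.29 with the control scaling.

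**Figure D1:**
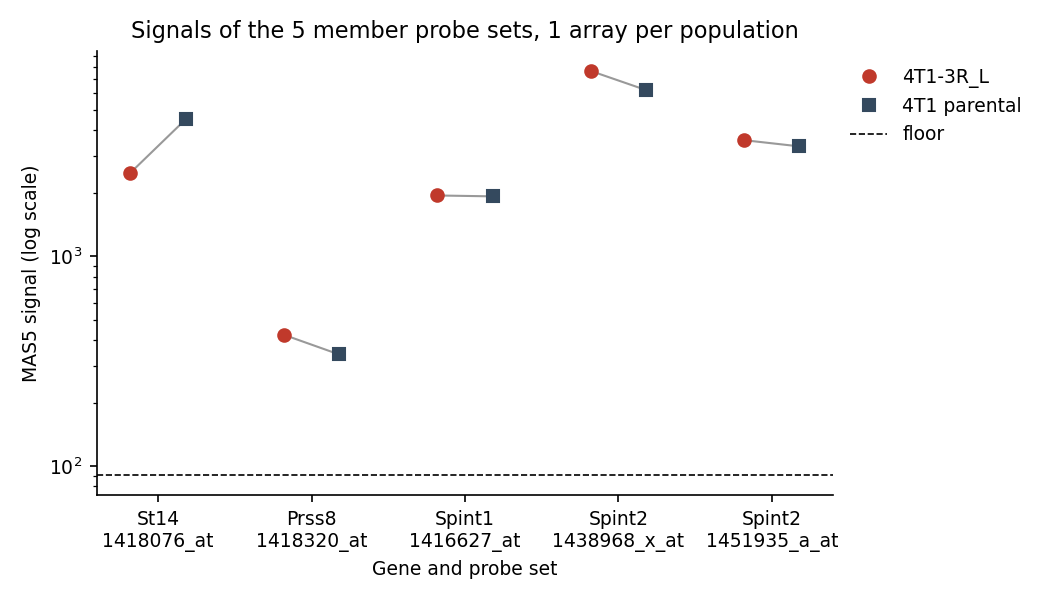
MAS5 signal (log axis) of the 5 member probe sets in 4T1-3R_L cells (circles) and 4T1 parental cells (squares), 1 array each, with the floor of 90.6 as a dashed line. St14 is the 1 gene whose 4T1-3R_L signal lies clearly below the parental signal, and all 10 signals lie over the floor.

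None of the 4 members was at least 2-fold apart. Among all measured genes, 6.22% were 2-fold or more higher in 4T1-3R_L cells, 4.48% were 2-fold or more lower, and 10.7% passed in either direction, so 0 of 4 is not a result about the members. The size of the St14 difference can also be read against the disagreement between probe sets. Over 5377 genes with a second measured probe set, the log2 ratios of a gene's 2 leading probe sets differed by a median of 0.35, and 10% differed by more than 0.88. The -0.85 of St14 rests on 1 probe set and lies within that range, and the ratios of the other 3 genes lie under that median.

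**Figure D2:**
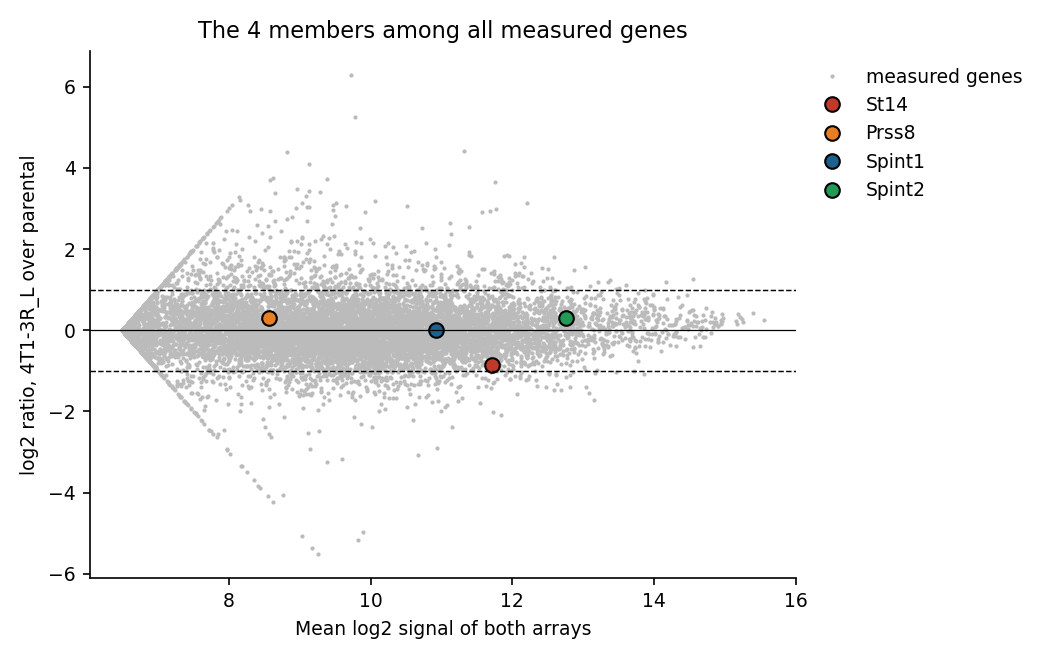
log2 ratio of the 4T1-3R_L over the parental signal against the mean log2 signal of both arrays for the 11135 measured genes (grey), with the 4 members in colour and dashed lines at 2-fold. St14 at -0.85 lies near the lower 2-fold line, while Prss8, Spint1 and Spint2 lie between 0.01 and 0.31 as deposited and below zero with control scaling.

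A difference between log2 ratios does not change when an array is rescaled as a whole, so it describes the balance of protease and inhibitor signals between the arrays. The ratio of St14 to Spint1 signal was 1.82-fold lower in 4T1-3R_L cells than in parental cells, a difference of -0.86 on the log2 scale. Against Spint2 it was 2.22-fold lower on the brighter probe set, a difference of -1.15, and 1.93-fold lower on the other. The log2 ratio of Prss8 differed less from those of its inhibitors, by 0.30 against Spint1 and by 0.01 and 0.21 against the Spint2 probe sets. The St14 signal was thus lower relative to both inhibitor signals on these 2 arrays, and the Prss8 signal was not. These differences were added after seeing the data and were not tested. The -0.86 against Spint1 is smaller in size than the 0.88 given above for disagreement between probe sets of a gene.

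The level of every gene depends on how the arrays are scaled. When they were brought to the same signal on the 18 hybridisation control probe sets, the median of all measured genes moved to -0.55 on the log2 scale, against -0.01 as deposited. St14 then had a log2 ratio of -1.44, past 2-fold, while 2378 genes were 2-fold or more lower and 243 were 2-fold or more higher. Prss8 (-0.28), Spint1 (-0.57) and Spint2 (-0.29) changed sign under it. Relative to the median gene St14 was lower, Prss8 and Spint2 were higher, and Spint1 lay close to it, as before. Scaling an array by 1 factor moves all members alike, so their order could not have changed. Under the other scalings, floors, pseudocount and probe set rules St14 stayed between -0.85 and -0.83, as the plot by setting shows. The floors and probe set rules could not move it, as it has a single probe set far over the floor.

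**Figure D3:**
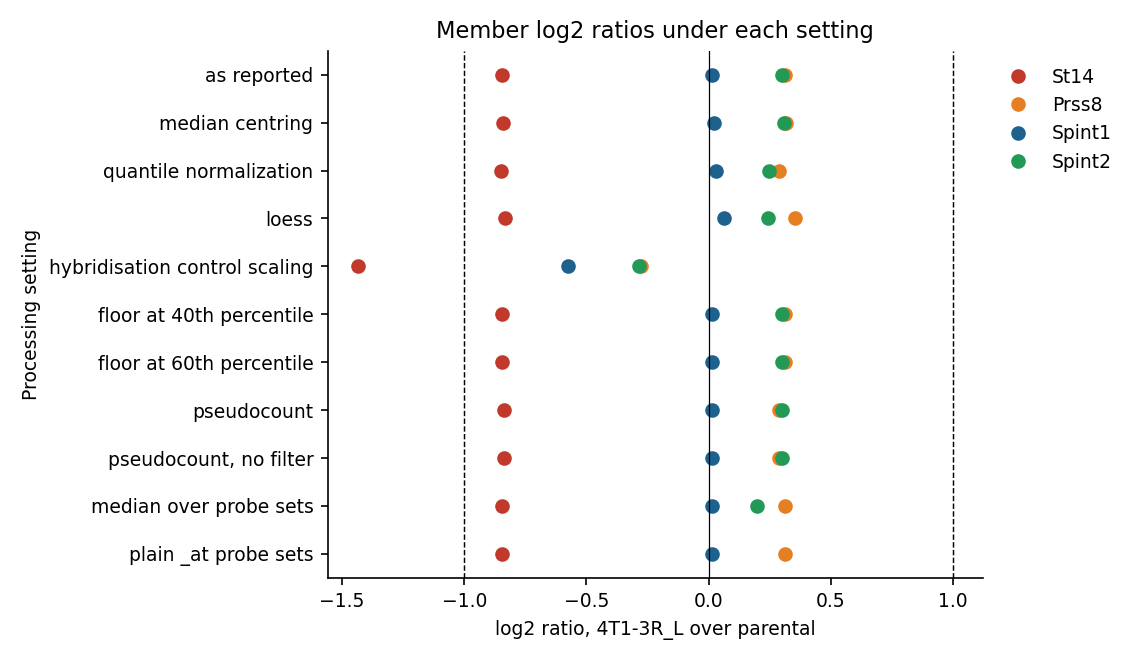
log2 ratio (4T1-3R_L over parental) of each member as reported and under each of 10 processing alternatives, with dashed lines at 2-fold. The points move together to lower values with scaling to the hybridisation controls, where Prss8, Spint1 and Spint2 turn negative and St14 passes 2-fold; Spint2 has no plain _at probe set and no value there.

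Promoter sequences are shown for Spint1 and Spint2, the 2 members held by the promoter table used here, to give the context of the inhibitor genes; those of St14 and Prss8 were not analysed here. They are the 250 bases before the transcription start from RefSeq, on the GRCm38.p6 build, written 5′ to 3′ along the gene's own strand. Spint1 lies at chr2:119237110-119237359 on the plus strand and Spint2 at chr7:29281978-29282227 on the minus strand. Capitals mark the letters CAGGTG, an E-box bound by Zeb and Snail factors, searched on both strands.
Spint1: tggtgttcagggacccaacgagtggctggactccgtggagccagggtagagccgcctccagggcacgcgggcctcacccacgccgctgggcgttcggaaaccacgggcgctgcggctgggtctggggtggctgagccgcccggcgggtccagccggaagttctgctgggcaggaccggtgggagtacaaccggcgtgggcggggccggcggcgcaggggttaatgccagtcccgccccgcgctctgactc
Spint2: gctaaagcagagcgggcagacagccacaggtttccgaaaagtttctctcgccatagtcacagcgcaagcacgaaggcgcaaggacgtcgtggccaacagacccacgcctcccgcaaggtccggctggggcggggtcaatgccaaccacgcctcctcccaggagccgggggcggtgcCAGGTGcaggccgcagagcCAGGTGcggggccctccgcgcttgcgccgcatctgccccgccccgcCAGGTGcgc
The E-box occurred 3 times in the Spint2 window, each time in the direction of the gene, and was not found in the Spint1 window. It was present in 17.2% of 32851 promoter windows of the same length. The GC box GGGCGG, searched on both strands, occurred 3 times in each window and in 32.7% of all windows. The grainyhead-like motif AACCGGTT was found in neither, and 0.1% of all windows hold it. The windows were rich in G and C, at 72.8% for Spint1 and 69.6% for Spint2, against a median of 52.4%. Such matches describe the letters only.

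Most of the related surface proteases gave no signal over the floor. Of 28 genes on a list of surface serine proteases, which includes the peptidases Fap and Dpp4, 22 had a probe set of their own and 4 were measured, St14 and Prss8 among them. Their median log2 ratio was 0.04, against -0.01 for all measured genes. None was 2-fold apart, against 10.7% of all measured genes. Tmprss11e, a membrane-bound trypsin-like protease, had a signal of 6215 in 4T1-3R_L cells and 3674 in parental cells, a log2 ratio of 0.76 on its single probe set and of 0.17 with control scaling. Tmprss6, a regulator of hepcidin in liver, was near the floor at 102 in 4T1-3R_L cells and 120.0 in parental cells. The 18 genes under the floor on both arrays included Tmprss2 (64.0 in 4T1-3R_L and 60.8 in parental cells), Hpn, which encodes hepsin (45.2 in 4T1-3R_L and 36.6 in parental cells), and Tmprss4 (7.1 in 4T1-3R_L and 32.7 in parental cells). No listed surface protease other than these 4 reached the floor on either array.

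Among secreted trypsin-like proteases, single genes differed in both directions around a median near that of all genes. Of 41 listed, 38 had a probe set and 17 were measured. Of these, 4 were 2-fold or more higher and 1 was 2-fold or more lower, against 6.22% and 4.48% of all measured genes. Over all measured genes, 58.1% of 2-fold differences were higher. The median log2 ratio of the list was 0.02, against -0.01 for all measured genes. Masp1, a protease of the lectin complement pathway, had 819 in 4T1-3R_L cells and 154 in parental cells, 5.30-fold higher, with a log2 ratio of 2.41 on its next probe set too. Prss12, also called neurotrypsin, had 2996 in 4T1-3R_L cells and 704 in parental cells, 4.25-fold higher. Plat, the tissue plasminogen activator, was 2.97-fold higher (1213.5 in 4T1-3R_L and 408.5 in parental cells). Its median over probe sets was 0.79, under 2-fold, only because its other probe set was under the floor on both arrays. The kallikrein Klk8 was 2.58-fold higher, at 559 in 4T1-3R_L cells and 217 in parental cells. With control scaling Plat and Klk8 were at 0.98 and 0.78, no longer 2-fold apart. Prss23 was the 1 lower gene, at 1365 in 4T1-3R_L cells and 3290.2 in parental cells, a log2 ratio of -1.27. Its next probe set had -1.57, but its plain _at probe set had -0.35. Plau, which encodes the urokinase precursor that matriptase can activate, had 631 in 4T1-3R_L cells and 362 in parental cells, a log2 ratio of 0.80, and 0.37 on its next probe set.

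On a list of inhibitors and members of their families, the largest differences lay outside the Kunitz family. Of 44 listed, 38 had a probe set and 18 were measured, with a median log2 ratio of 0.13. Of these, 1 was 2-fold or more higher and 1 was 2-fold or more lower, against 6.22% and 4.48% of all measured genes. The higher gene was Slpi, a secreted inhibitor of the WAP family, with 12281.5 in 4T1-3R_L cells and 979 in parental cells, 12.5-fold higher. The lower gene was Serpinb5, with 39.3 in 4T1-3R_L cells, under the floor, and 744 in parental cells, at least 8.22-fold lower. It encodes maspin, listed here as a serpin by family, and inhibition of a protease by it is not implied. The amyloid precursor App had 8951 in 4T1-3R_L cells and 6490 in parental cells (log2 ratio 0.46), and its homologue Aplp2 had 5189 in 4T1-3R_L cells and 6574 in parental cells (-0.34). Tfpi, the tissue factor pathway inhibitor, had 31.6 in 4T1-3R_L cells, under the floor, and 110.1 in parental cells, a log2 ratio of -0.28 against the floor and -1.16 with a pseudocount of 32. Wfdc2, a WAP-domain protein of epithelia, had 16891 in 4T1-3R_L cells and 13020 in parental cells (0.38).

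Known substrates and receptors of the proteases were listed together with junction and matrix genes. Of 32 such genes, 29 had a probe set and 19 were measured, with a median log2 ratio of -0.02. Of these, 0 were 2-fold or more higher and 4 were 2-fold or more lower, against 6.22% and 4.48% of all measured genes. Epcam had 1776 in 4T1-3R_L cells and 7536 in parental cells, 4.24-fold lower, but a log2 ratio of -0.59 on its next probe set. Cldn7, the claudin that Epcam binds, had 151 in 4T1-3R_L cells and 5432 in parental cells, 36.0-fold lower. Cleavage of the proteins was not measured. Cgn, the tight junction protein cingulin, and the membrane protein Tmeff1 were 2.23-fold and 2.27-fold lower. As medians over their probe sets both were under 2-fold (-0.87 and -0.59). For Tmeff1 this was only because its other probe set was under the floor on both arrays.

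Igfbp7, a growth factor binding protein that matriptase can cleave, had 5346 in 4T1-3R_L cells and 9681 in parental cells, a log2 ratio of -0.86, and -0.32 on its next probe set. Klf5, a transcription factor placed on this list and on that of epithelial regulators, went the other way, with 3496 in 4T1-3R_L cells and 1954 in parental cells, a log2 ratio of 0.84. Hgf, the growth factor whose precursor matriptase cleaves, was under the floor on both arrays, at 38.0 in 4T1-3R_L cells and 64.7 in parental cells. Its receptor Met had 3520.5 in 4T1-3R_L cells and 3577 in parental cells, a log2 ratio of -0.02, and -0.46 on its next probe set. Scnn1a, a subunit of the sodium channel that prostasin activates, lay at the floor, with 104 in 4T1-3R_L cells and 89.6 in parental cells. The receptor gene F2rl1 was not analysed here. Neither the growth factor ligand nor this channel subunit was thus clearly over the floor, whereas the receptor gene Met was, in both cultures.

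**Figure D4:**
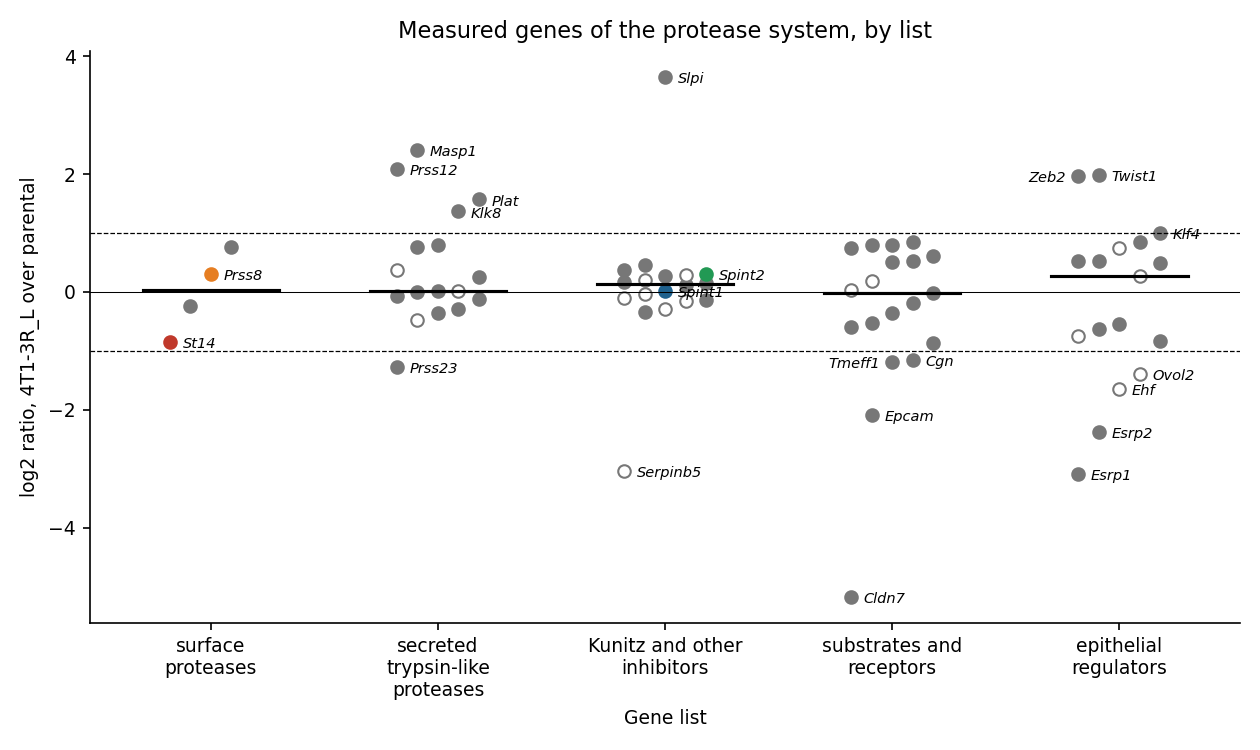
log2 ratio (4T1-3R_L over parental) of each measured gene of 5 gene lists, with open circles where 1 array lay under the floor, a black bar at the list median and dashed lines at 2-fold. Labels name the members and the genes at least 2-fold apart: Slpi is the highest at 3.65, Cldn7 the lowest at -5.17, and the 4 members lie within the 2-fold lines. Scaling to the hybridisation controls moves points lower, the open circles by less than the filled ones.

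The listed transcription factors and splicing regulators of the epithelial state include repressors of epithelial genes, such as Zeb2 and Twist1, and went both ways. Of 26 listed, 25 had a probe set and 17 were measured. Of these, 3 were 2-fold or more higher and 4 were 2-fold or more lower, against 6.22% and 4.48% of all measured genes. Their median log2 ratio was 0.28, taken over repressors and other factors together. Grhl2, a factor known to maintain epithelial gene expression, had a signal of 924 in 4T1-3R_L cells and 1338 in parental cells, a log2 ratio of -0.53, and -0.58 on its next probe set. The splicing regulators Esrp1 and Esrp2 were 8.46-fold and 5.20-fold lower, although Esrp2 had -0.51 on its next probe set. Ehf and Ovol2, factors of epithelial cells, were under the floor in 4T1-3R_L cells, at least 3.14-fold and at least 2.61-fold lower, and were no longer 2-fold apart when the floor was the 60th percentile (-0.75 and -0.49). Ovol1 had 67.9 in 4T1-3R_L cells, under the floor, and 151 in parental cells. Zeb2 and Twist1, which repress epithelial genes, were 3.93-fold and 3.94-fold higher. Klf4 was 2.01-fold higher, at the threshold (log2 ratio 0.95 with the pseudocount and 0.41 with control scaling). Of the 17 measured genes, 9 had a positive log2 ratio and 8 a negative one. As deposited, Gata3 (0.53) and Tfap2a (0.53, and 0.195 on its next probe set) were also higher. Snai2 and Twist2 were under the floor on both arrays.

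Epithelial markers had signal in both cultures, most of them lower in 4T1-3R_L cells, and no listed hepatocyte marker reached the floor. Of 10 epithelial markers 9 were measured, 8 with a negative log2 ratio and 1 with a positive one. Their median was -0.99, against -0.01 for all measured genes. Of the 9, 4 were 2-fold or more lower in 4T1-3R_L cells, against 4.48% of all measured genes. Their summed signal was 65044 in 4T1-3R_L cells and 92037 in parental cells. Krt8 (21891 in 4T1-3R_L and 18784 in parental cells) and Krt18 (20614 in 4T1-3R_L and 23738 in parental cells) differed by log2 ratios of 0.22 and -0.20. The basal keratin Krt14 had 171 in 4T1-3R_L cells and 5324 in parental cells, 31.2-fold lower. The claudins Cldn4 and Cldn3 had log2 ratios of -2.21 and -1.27, E-cadherin (Cdh1) -0.99 and Krt19 -0.76. Actb, which encodes beta-actin, had 32312 in 4T1-3R_L cells and 27937.5 in parental cells, a log2 ratio of 0.21, and 1.18 on its next probe set. None of 10 hepatocyte markers reached the floor on either array, with sums of 192 in 4T1-3R_L cells and 285 in parental cells, and none of 6 endothelial markers did, with sums of 212 in 4T1-3R_L cells and 236 in parental cells. Of 8 fibroblast and stellate cell markers 1 was measured, Des, at 15.9 in 4T1-3R_L cells and 106 in parental cells, and the sums were 329 in 4T1-3R_L cells and 455 in parental cells. Of 7 leukocyte markers with a probe set 2 were measured, and the sums were 660.1 in 4T1-3R_L cells and 1571 in parental cells. Csf1r, the receptor of a macrophage growth factor, had 88.1 in 4T1-3R_L cells and 1026 in parental cells. Cd68, the other measured marker, had 374 in 4T1-3R_L cells and 388 in parental cells, so the sums differed mostly through Csf1r. Ptprc, the common leukocyte marker, was under the floor on both arrays (26.5 in 4T1-3R_L and 21.7 in parental cells). The part of any of these cells in the St14 difference was not tested.

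The genes beside the members on their chromosomes, in RefSeq's gene order, showed no common shift. Around St14 on chromosome 9, the 5 nearest measured genes on each side had log2 ratios between -0.67 (Zbtb44) and 0.23 (Ntm), with 5 negative and 5 positive, and St14 was lower than all 10. Among these neighbours was Aplp2. The 10 neighbours of Prss8 on chromosome 7 lay between -0.35 (Prss36, itself a serine protease gene) and 0.79 (Vkorc1). Those of Spint1 on chromosome 2 lay between -0.35 (Zfyve19) and 2.80 (Gchfr), and those of Spint2 on chromosome 7 between -0.35 (Psmd8) and 1.14 (Spred3).

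The measured genes with signals most like each member, taken as the 2 at the smallest distance in the plane of both log2 signals over these 2 arrays, were as follows. Ruvbl2 (log2 ratio -0.79) and Utp4 (-0.77) were nearest to St14, at distances of 0.05 and 0.06. Gtf3c5 (0.30) and Chpf (0.37) were nearest to Prss8. Sft2d2 (0.00) and Pam16 (0.02) were nearest to Spint1, and Slc38a2 (0.34) and Ube2d2a (0.25) to Spint2. With 2 arrays, many genes lie this close by their level alone.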

How the data were processed

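The values the authors deposited are linear intensities, 1 per probe set, for which the submitters' processing notes name MAS5; no source used here states its version, scaling target or detection calls. Each array's mean after trimming 2% at both ends came to 500.003, so scaling to a common trimmed mean changed nothing. Of 45101 probe sets, 34945 carried 1 gene symbol in the platform annotation, which can be old, 932 several, 64 were controls and 9160 were not listed; 34737 matched the RefSeq gene table of GRCm38.p6 by Entrez identifier. Signals under the floor of 90.6 were set to it before taking log2, and a gene was read from its brightest single-gene probe set by mean log2 signal, which left 11135 measured genes. With 1 of the signals under the floor, a fold is only a lower bound. With 1 array per group no test was run. The number of arrays limits the precision. Python 3.11.15 with numpy 2.4.6, pandas 2.3.3 and statsmodels 0.14.6 was used. The procedure was checked on simulated arrays with little noise and known changes past 2-fold in genes well over the floor. That check does not cover smaller differences such as that of St14.

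The members and gene lists were chosen with earlier results of these data known. Named genes were the members, list genes at least 2-fold apart, the next in size up to 6 per list, a fixed set of related genes, and the 2 nearest genes to each member. Tmprss4, Gata3, Tfap2a, Snai2, Twist2, the chromosomal neighbours and the genes under Other observations fall outside that rule. They were named after their values were seen. Alternatives were median centring, quantile normalization, loess, hybridisation control scaling, floors at the 40th and 60th percentile, a pseudocount of 32 with and without the filter, the median over probe sets, and plain _at probe sets.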

Additional observations from a re-analysis of the deposited data

How the results depend on the processing

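Under 9 of 10 alternatives St14 kept its direction and side of the 2-fold threshold (-0.85 to -0.83). Both floors, the median over probe sets and plain _at probe sets could not move it. Its single probe set is a plain _at set far over the floor. The differences of the St14 log2 ratio from Spint1 (-0.89 to -0.85), Spint2 (-1.15 to -1.05) and Prss8 (-1.18 to -1.13) moved little. They were added after seeing the data, and scaling of a whole array cannot change them. Scaling to the hybridisation controls gave -1.44 for St14, -0.28 for Prss8, -0.57 for Spint1 and -0.29 for Spint2. It gave 243 genes at least 2-fold higher and 2378 lower (9.3% of calls higher, against 58.1%). Medians were -0.33 for secreted proteases, -0.39 for the inhibitor list and -0.12 for epithelial regulators. That scaling multiplies all signals of an array by 1 factor, but ratios with a signal near or under the floor can move by less. The median over probe sets, which counts a probe set under the floor on both arrays as no difference, gave 449 genes at least 2-fold higher. A floor at the 60th percentile gave a median of 0.39 for secreted proteases, and one at the 40th -0.17 for epithelial regulators, as other genes entered. Plain _at probe sets gave -0.43 for substrates and receptors, and no Spint2 value. Of 22 list and marker genes at least 2-fold apart, 19 to 22 stayed so under each alternative, or 18 of 19 with plain _at probe sets, and 0 reversed. Others newly passed 2-fold, 9 with control scaling, 3 with each use of the pseudocount, 2 with the 40th percentile floor and 1 each with quantile normalization, loess and plain _at probe sets. No paired analysis was possible because each group had 1 array. Signals near the floor, as for Tmprss6 and Scnn1a, limit what can be read from their ratios.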

Other observations

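Some further genes of the lists had signals well over the floor and, on the probe set used for each gene, lay within 2-fold as deposited. Htra1 passed 2-fold on another probe set. The genes named here were picked after their values were seen, and other listed genes with such values are not named. Plaur, the urokinase receptor, had 2280 in 4T1-3R_L cells and 1360.4 in parental cells, a log2 ratio of 0.74. F2r, which encodes protease-activated receptor 1, had 16396 in 4T1-3R_L cells and 11523 in parental cells, a log2 ratio of 0.51, and 0.85 on its next probe set. Cdcp1, a surface protein that serine proteases cleave, had 3432 in 4T1-3R_L cells and 4377 in parental cells, a log2 ratio of -0.35. Sdc1, which encodes syndecan-1, had 4741 in 4T1-3R_L cells and 2733.5 in parental cells, a log2 ratio of 0.79, but 0.20 on its next probe set. Htra1, a secreted serine protease, had 17725 in 4T1-3R_L cells and 10474.5 in parental cells, a log2 ratio of 0.76, and 1.09 on its next probe set. Prss22, a tryptase-like protease of epithelia, had nearly equal signals of 1656 in 4T1-3R_L cells and 1639 in parental cells.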
